A study of Mus musculus with 2 samples.

Results

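The Arraystar Mouse LncRNA Microarray v2.0 carries a small set of custom probes that are named by a transcript accession in place of an identifier of the array design. The 213 probes described here are those custom probes, array controls excluded, whose name is neither a RefSeq mRNA accession nor that of an ultraconserved region, out of 61194 spots that are not array controls. Each was printed as 1 spot, and they are the numbers 1 to 213 of a single custom design set, in which 103 RefSeq mRNA probes follow. By the form of the accession, 76 were transcripts of the Ensembl annotation (ENSMUST), 68 were cDNAs with AK accessions, 51 were transcripts of the UCSC gene annotation (uc007 to uc009), 5 were RefSeq noncoding RNAs (NR) and 13 carried other GenBank accessions. The AK sequences are full-length mouse cDNAs from the RIKEN collection, and those beginning with BB, BY and AV are expressed sequence tags, short reads from the end of a cDNA.

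Gene expression was measured in plasma of C57BL/6 male mice of 8 to 10 weeks. IRI mice had 60 min of partial liver ischemia and then 6 h of reperfusion, and sham mice had the operation without occlusion of the vessels. Each group was 1 array of pooled plasma, with 3 mice per pool by the labels and 5 to 8 by the methods. With 1 array a group there was no replicate check and no test, and the fold changes describe these arrays only. Scan day differed between the arrays, and scan and group cannot be told apart.

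Plasma is the cell-free part of the blood, and the RNA in it comes from dying or secreting cells of the liver, the blood and other tissues and is protected by vesicles or bound proteins. In liver ischemia and reperfusion, oxygen-starved hepatocytes are further injured when blood flow returns, and their contents leak into the circulation. Long noncoding RNAs (LncRNAs) are transcripts without a long reading frame, and some of them act on chromatin, splicing or mRNA stability. An accession of the Ensembl, UCSC or AK kind does not say by itself whether the transcript is coding. A level on these arrays is the summed RNA of the pool, so that fewer cells shedding a transcript and less of it per cell cannot be told apart.

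The authors deposited IRI values in versions that differ. Whether these versions come from the same hybridisation is not given in the sources used here. The scanner file holds the processed signal of each spot with its flags, and a series matrix holds 1 column of processed signals per sample. Sham values were identical in the scanner file and the matrix at all 62513 spots. IRI values were identical at 1 spot, and at 0 of the 213 probes. Both versions of the IRI values are therefore given for every transcript, each against the same sham array. Spearman rho across the 213 transcripts was 0.481 between sham and the IRI scanner file, 0.703 between sham and the IRI values of the matrix, and 0.348 between the IRI versions. Over all spots that are not array controls it was 0.405, 0.738 and 0.454 in the same order. These correlations are over single spots that share an array, and are given as a description. Of 26 marker genes of blood cells, liver and the acute phase, 1 had a probe that could be named. It was Tfrc, the transferrin receptor, 1 of 6 genes on the list for red cells, printed as 20 spots. Its processed signal was 3.46 to 6.32 on the sham array, with no spot well above background, 4318 to 5222 in the IRI scanner file, with 20 of 20 spots above it, and 2.55 to 10.98 in the matrix, with 0 spots reaching the floor of detection used there. Markers of liver, the acute phase, platelets and neutrophils had no named probe, so that the plasma label could not be checked with them.

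Signals were well above background for 94 of the 213 transcripts (44.1%) on the sham array, beside 41.2% of the 59994 probes that are not negative controls. On the IRI array as given by its scanner file, 149 transcripts (70.0%) passed, beside 69.6% of all probes. The matrix has no flags, so that a floor of 16.67 stood in for them, the lowest sham signal with that flag. It was reached by 77 transcripts (36.2%), beside 36.9% of all probes. The shares of the 213 transcripts were thus close to those of all probes on each array, and the larger difference lay between the IRI versions. The 103 mRNA probes of the same set were above background at 28.2%, 70.9% and 37.9% respectively. No spot of the 213 was saturated or carried an outlier flag.

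Setting sham beside the IRI scanner file, 84 transcripts were above background on both arrays, 65 on the IRI array only, 10 on the sham array only and 54 on neither. The IRI-only share is to be read against 34.1% of all probes, and the sham-only share against 5.64%. With the IRI column of the matrix the order turned: 61 transcripts were above background on both arrays, 16 on the IRI array only, against 7.40% of all probes, 33 on the sham array only, against 11.6%, and 103 on neither. The same turn was seen over all probes, as these shares show. In the scanner files 26 of 76 Ensembl transcripts were seen in IRI plasma only and 4 in sham plasma only. These counts were close to the shares of all probes. In the matrix 4 were seen in IRI plasma only and 19 in sham plasma only, the latter above the share of all probes. Of 68 AK cDNAs, 42 (61.8%) were above background in the IRI scanner file and 27 (39.7%) in the matrix. Of 51 UCSC transcripts, 39 (76.5%) and 25 (49.0%) were, beside 69.6% and 36.9% of all probes.

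**Figure D1:**
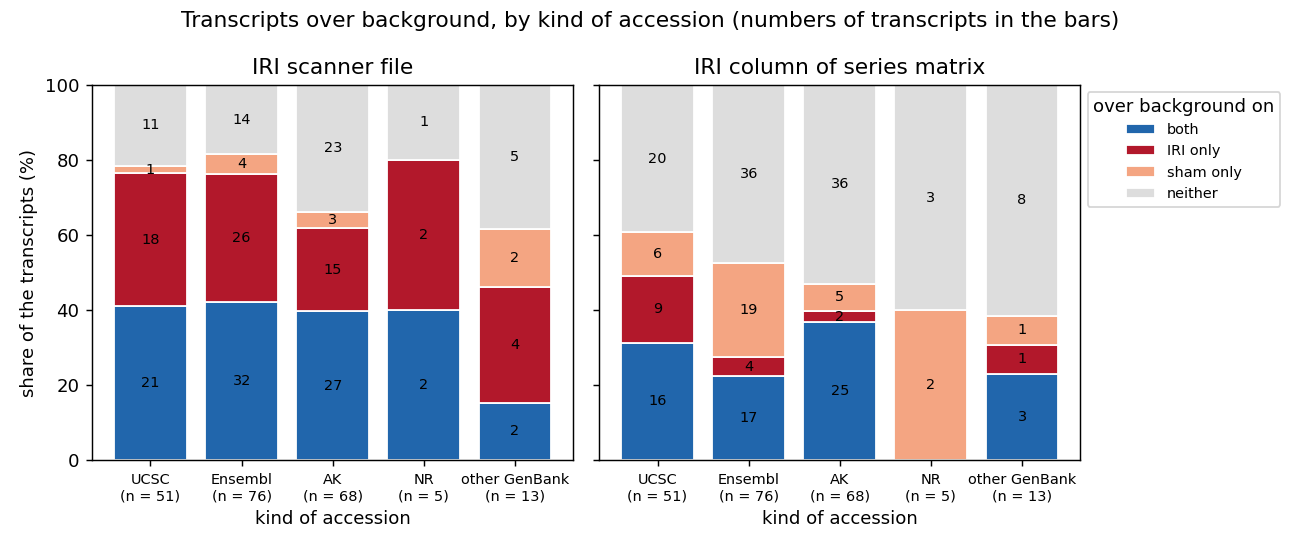
Share of the transcripts of each kind (y axis, %) that were above background on both arrays, on 1 of them or on neither, with the number of transcripts written in each bar; left, the IRI scanner file, right, the series matrix, each beside the same sham array. Ensembl transcripts seen in IRI plasma only were 26 of 76 on the left and 4 on the right, against 34.1% and 7.40% of all probes.

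A transcript was counted as detected when both arrays flagged its spot as positive, significant and well above background, or, for the matrix, by the sham flags and the floor. Log2 signals were quantile normalized over the 61194 spots, and 1.5-fold and 0.7-fold were taken as thresholds for higher and lower, after the methods of the study. In both versions the share of all detected probes past them was far larger than the share of LncRNAs that the study reports. The calls are therefore not comparable to those of the study. In the scanner files 34 of the 84 detected transcripts (40.5%) were higher in IRI plasma, against 19.1% of all 21294 detected probes, and 41 (48.8%) were lower, against 69.7%. The median log2 fold change was -0.46 for the 84 transcripts and -1.78 for all detected probes. The direction of the former depended on the scaling and the filter: it was 1.76 without normalization, with 57 transcripts higher and 19 lower, 0.85 with quantile normalization over detected probes and 0.83 with a filter on dim signals. Since the median of all detected probes moved from -1.78 to 0.55 when no normalization was applied, changes were also counted relative to that median. On this scale 50 of the 84 (59.5%) were higher, against 40.5% of all detected probes, and 19 (22.6%) were lower, against 41.1%, with a median of 1.32.

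In the series matrix 24 of 61 detected transcripts (39.3%) were higher in IRI plasma, against 32.6% of all 17709 detected probes, and 12 (19.7%) were lower, against 19.9%. The median log2 fold change was 0.32, beside 0.21 for all detected probes, and all 61 values lay between -1.74 and 1.84. Without the floor on the IRI signal 94 transcripts were counted, the median turned to -0.31 and 43 were lower, so that the floor set the lower end of this range in part. Relative to the median of all detected probes 22 (36.1%) were higher, against 24.2%, and 17 (27.9%) lower, against 26.6%. The range in the matrix was thus far narrower than that in the scanner files, where the detected transcripts ran from -5.96 to 11.56. Feature Extraction gives an error for each spot, and the only measured repeats on these arrays are the spots of probes printed several times. The SD of the log2 fold change over such spots had a median of 0.26 over 4 probes in the scanner files and of 0.25 over 6 probes in the matrix. It ran from 0.17 to 0.58 and from 0.15 to 0.72, respectively. Only probes detected in every one of their spots were included, so that it does not describe spots near background. Differences between pools, hybridisations or mice are not part of this SD.

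**Figure D2:**
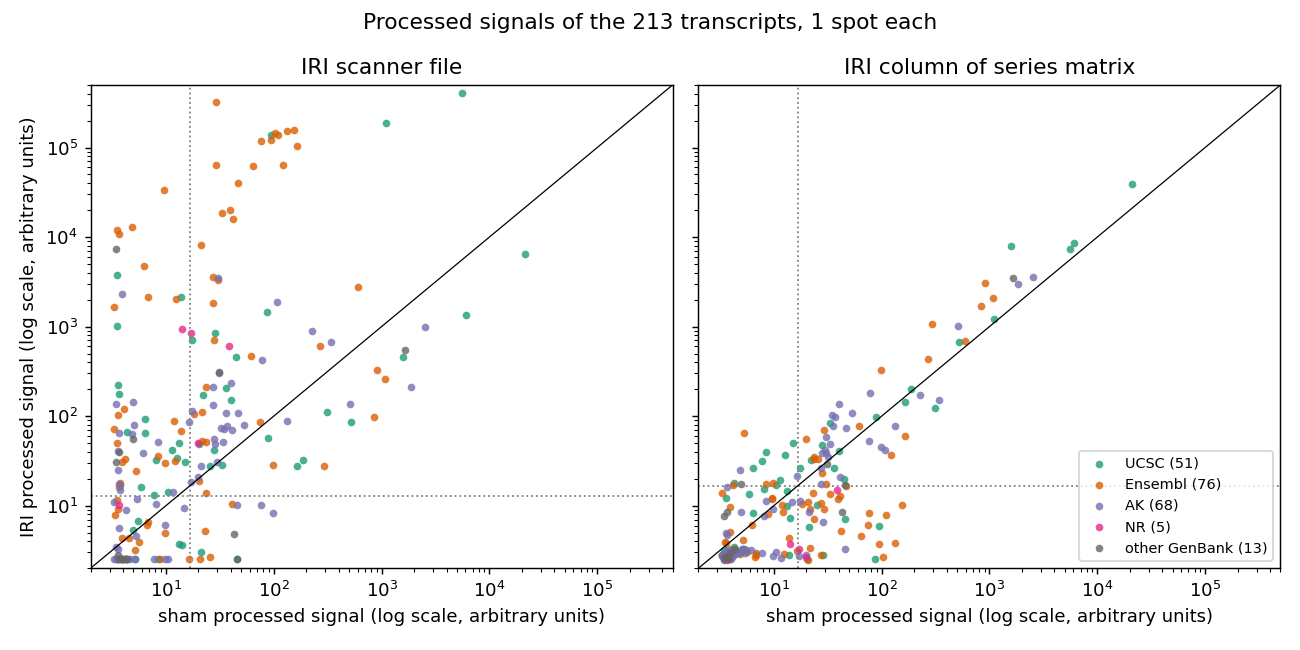
Processed signal of the 213 transcripts on the sham array (x axis) and on the IRI array (y axis), both on log scales in arbitrary units, coloured by kind of accession; dotted lines mark the lowest signal well above background, and the solid line equal signals. In the scanner file (left) 22 transcripts had an IRI signal of 10000 or more, whereas in the matrix (right) 1 did.

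In the scanner files the medians of the kinds of accession lay far apart. Of 32 detected Ensembl transcripts, 20 were higher and 11 lower in IRI plasma, with a median log2 fold change of 4.15. The 21 detected UCSC transcripts had 7 higher and 11 lower, with a median of -1.21, and the 27 detected AK cDNAs had 5 higher and 18 lower, with a median of -0.98. The 26 detected mRNA probes of the same set had 4 higher and 20 lower, with a median of -2.91. Over all detected probes 19.1% were higher and 69.7% lower, with a median of -1.78. The shares were 62.5% and 34.4% for Ensembl, 33.3% and 52.4% for UCSC and 18.5% and 66.7% for AK. Those of the AK cDNAs were thus near the shares of all detected probes. In the matrix the medians were much closer, with 0.39 for 17 Ensembl transcripts (8 higher, 2 lower), -0.10 for 16 UCSC transcripts (4 higher, 3 lower), 0.49 for 25 AK cDNAs (12 higher, 6 lower) and 0.26 for 28 mRNA probes (8 higher, 3 lower). Of all detected probes in the matrix 32.6% were higher and 19.9% lower, with a median of 0.21. Relative to the median of all detected probes, the balance turned for 2 kinds in the scanner files: of the AK cDNAs 15 were higher and 4 lower, with a median of 0.80, and of the UCSC transcripts 10 were higher and 8 lower, with a median of 0.57. The Ensembl transcripts kept theirs, with 22 higher and 6 lower and a median of 5.92. On that scale 40.5% of all detected probes were higher and 41.1% lower. The high median of the Ensembl transcripts was therefore seen with 1 version of the IRI values and not with the other, but over different transcripts. Of the 16 transcripts with a log2 fold change of 5 or more in the scanner files, 3 were detected in the matrix. Among 16 Ensembl transcripts detected in both versions, 2 were higher in both. Another 2 were higher in the scanner files and lower in the matrix, and 2 were higher in the scanner files and between the thresholds in the matrix. Of the rest, 5 were lower in the scanner files and higher in the matrix, and 4 were lower in the scanner files only.

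**Figure D3:**
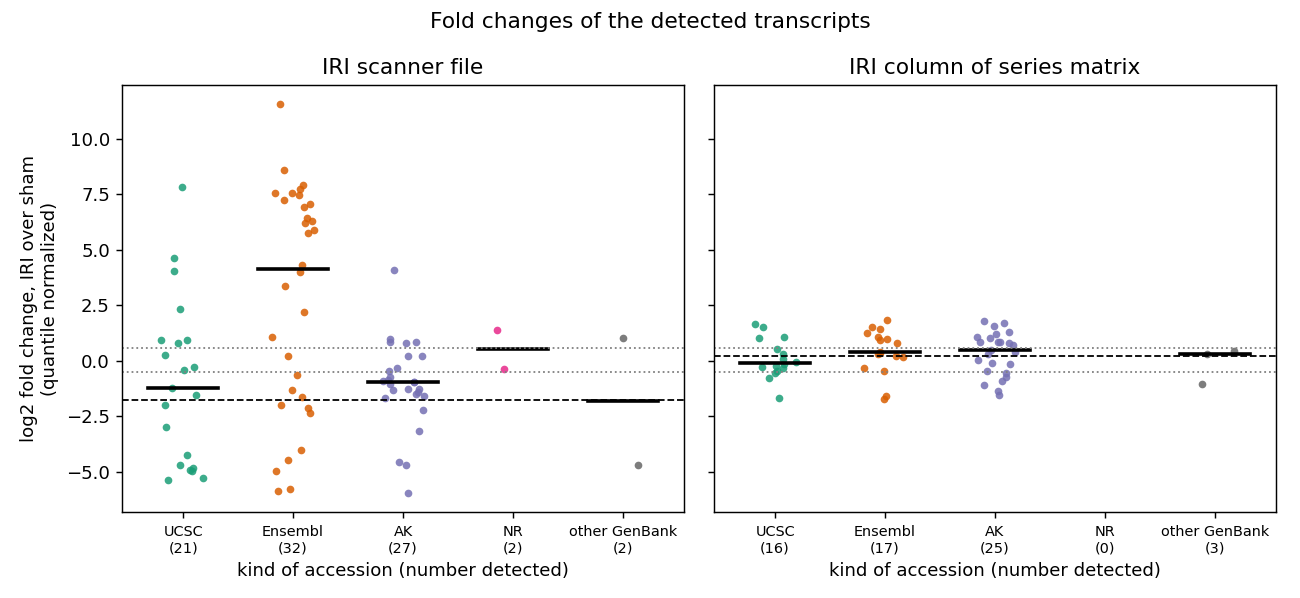
Log2 fold change of IRI over sham (y axis, quantile normalized) of each detected transcript by kind of accession; bars are medians, dotted lines the thresholds of 1.5 and 0.7, and the dashed line the median of all detected probes. Ensembl transcripts form an upper cloud in the scanner files, where 15 of them reach a log2 fold change of 5, and none does so in the matrix. Most of these transcripts are not drawn on the right, as they were not detected in the matrix.

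A log2 fold change of 5 or more was found for 16 transcripts in the scanner files, 15 Ensembl and 1 UCSC, which is 19% of those detected, against 5.83% of all detected probes. Before normalization the log2 ratio of each of the 16 was 8.57 or more. ENSMUST00000121460 had the largest of these changes. Its processed signal was 29.0 ± 5.85 in sham plasma (the error that Feature Extraction gives for the spot) and 321970 ± 32197 on the IRI array by its scanner file, and the log2 fold change was 11.56. In the matrix its IRI signal was 69.1, a log2 fold change of 1.51. It was the only 1 of the 16 that was higher in IRI plasma in both versions, although by very different amounts.

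The other transcripts of the 16 were dim or lower in the matrix. ENSMUST00000170414 had 29.2 in sham plasma and 64235 in the IRI scanner file (log2 fold change 8.60), but 9.21 in the matrix, where it was at least 1.23-fold lower than sham. ENSMUST00000167570 had 76.1 and 117974 (7.91), and 8.26 in the matrix, at least 3.78-fold lower. These bounds set the sham signal against the lowest signal that counts as above background, as the IRI signal in the matrix lay below it. A bound was computed before and after normalization, and the smaller is given with the words "at least". The UCSC transcript uc008fbw.1 had 94.1 in sham plasma and 137261 in the IRI scanner file (7.84), and 5.93 in the matrix, at least 4.83-fold lower. ENSMUST00000078729 had 103 and 144016 (7.76), and 2.68 in the matrix, at least 5.4-fold lower. In each of these 4 transcripts the sham signal stood between the IRI signals of the 2 versions, so that the direction depended on the version. ENSMUST00000119184 and ENSMUST00000166014 were detected in both versions and ran in opposite directions. The former had 123 in sham plasma, 63426 in the IRI scanner file (5.92) and 36.4 in the matrix (-1.74). The latter had 164, 104682 (6.32) and 60.1 (-1.58).

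A signal of 10000 or more in the IRI scanner file was reached by 22 transcripts, or 10.3% of the 213, against 4.35% of all probes. They were 19 Ensembl transcripts, which is 25% of that kind, and 3 UCSC transcripts, and no AK cDNA was among them. The mRNA probes of the same set reached it in 3 cases (2.91%). The signals of the 22 ran from 10744 to 410079 with a median of 84459 in the IRI scanner file. On the sham array they ran from 3.56 to 5589 with a median of 70.2, and 4 were not well above background. In the matrix they ran from 2.68 to 7418 with a median of 8.73, and 17 lay under the floor. The IRI signal in the matrix was below the sham signal in 18 of the 22. Numbers in the design set of the 19 Ensembl transcripts lay between 57 and 123, but all 76 Ensembl transcripts are numbered from 57 to 132. The spots of Tfrc, given above, were likewise far brighter in the IRI scanner file than on the sham array or in the matrix, although unlike most of the 22 they were not above background in sham plasma. No other gene of the red cell list had a named probe, and whether red cell RNA had a part in these results was not tested.

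**Figure D4:**
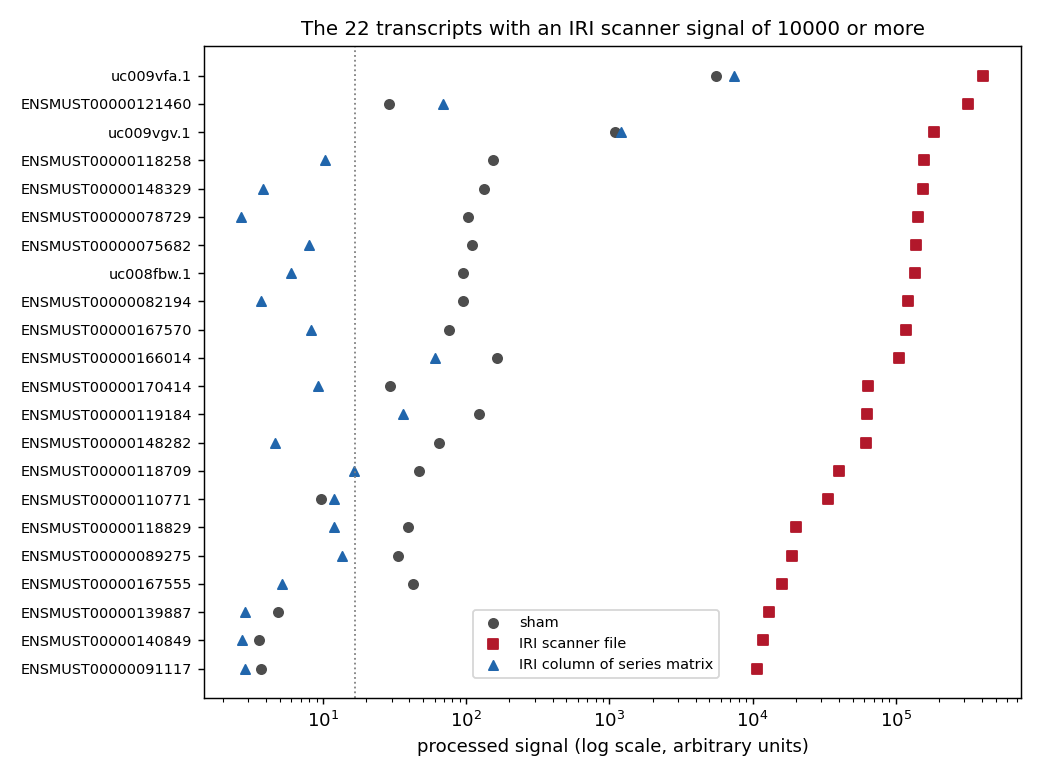
Processed signal (x axis, log scale, arbitrary units) of the 22 transcripts with an IRI scanner signal of 10000 or more, 1 row per transcript, on the sham array (circles), by the IRI scanner file (squares) and by the IRI values of the series matrix (triangles); the dotted line marks 16.67. The squares stand apart from the other symbols in every row, and 17 triangles lie left of the line.

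Of the 22, 5 were above the floor in the matrix, the 3 Ensembl transcripts ENSMUST00000121460, ENSMUST00000119184 and ENSMUST00000166014 and 2 UCSC transcripts, which were chosen after their values were seen. The transcript uc009vfa.1 had 5589 ± 559 in sham plasma, 410079 ± 41008 in the IRI scanner file and 7418 in the matrix, with log2 fold changes of 4.03 and -0.23. The transcript uc009vgv.1 had 1100 ± 110, 186349 ± 18635 and 1207, with log2 fold changes of 4.64 and -0.54. Both UCSC transcripts thus had matrix signals near those of sham plasma. In the matrix uc009vgv.1 passed the lower threshold only after normalization, since its signal was the higher there before it, with a log2 ratio of 0.13.

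Some transcripts were dim in sham plasma and bright in the IRI scanner file, so that only a bound could be given. ENSMUST00000110771 had 9.70 and 33418, at least 367-fold higher, and ENSMUST00000139887 had 4.81 and 12957, at least 135-fold higher. ENSMUST00000140849 had 3.56 and 11886, at least 124-fold higher, and ENSMUST00000091117 had 3.70 and 10744, at least 111-fold higher. The expressed sequence tag BB580022 had 3.44 and 7365, at least 73.6-fold higher. All 5 were under the floor in the matrix, so that no change could be given for them with that version.

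The 5 largest falls in the scanner files were transcripts that were bright in sham plasma. AK140593 had 1855 in sham plasma and 212 by the IRI scanner file (log2 fold change -5.96), and 3023 in the matrix (0.02). ENSMUST00000111365 had 843, 98.4 and 1703, with log2 fold changes of -5.79 and 0.34. The transcripts uc008ogc.1 and uc009sho.1 had log2 fold changes of -5.37 and -5.30 in the scanner files and of -0.13 and -0.31 in the matrix. These 4 transcripts were lower in the scanner files before normalization too, by log2 ratios of -2.17 to -3.13, while in the matrix they lay between the thresholds. ENSMUST00000171886 had 293 in sham plasma, 27.5 in the IRI scanner file and 1061 in the matrix, with log2 fold changes of -5.89 and 1.23, and so changed direction. The transcript uc008dxc.1, which had the only sham signal of 10000 or more among the 213, had 21184 in sham plasma, 6501 in the IRI scanner file (-4.71) and 38902 in the matrix (0.51).

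Bounds of falls in the scanner files were smaller. AK084577 went from 98.2 to 8.25, at least 7.75-fold lower, and AK136386 from 76.4 to 10.1, at least 6.03-fold lower. On normalized signals these bounds came to 33.5-fold and 24.2-fold. In the matrix their IRI signals were 45.7 and 52.7, with log2 fold changes of -1.08 and -0.48, so that only the former passed the lower threshold in that version. X67863, uc007ssi.1 and AK087117 were at least 3.63-fold, 3.62-fold and 3.59-fold lower in the scanner files (12.5-fold, 12.5-fold and 12.4-fold on normalized signals), and their log2 fold change or bound in the matrix also lay below sham. X67863 had a log2 fold change of -1.05 there, and the others were at least 2.10-fold and 2.08-fold lower.

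The series matrix gave its own list of changes, with smaller values. The 5 largest rises were those of ENSMUST00000171761, AK087215, AK155224, uc008ogi.1 and AK084660. ENSMUST00000171761 had 20.1 in sham plasma and 55.7 in the matrix, a log2 fold change of 1.84, and 18.9 in the IRI scanner file, one of -1.65. AK087215 had 40.4, 137 in the matrix (1.81) and 235 in the IRI scanner file (0.20). AK155224 and AK084660 had log2 fold changes of 1.70 and 1.56 in the matrix and of -0.93 and -0.94 in the scanner files. Their scanner signals were higher in IRI plasma before normalization, 71.7 against 34.7 and 77.5 against 36.8, so that the sign in the scanner files came with the normalization. The transcript uc008ogi.1 had 1591 in sham plasma, 7850 in the matrix (1.67) and 456 in the IRI scanner file (-4.85). None of the 5 was called higher in the scanner files.

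Of the 5 largest falls in the matrix, 2 were the Ensembl transcripts with 63426 and 104682 in the IRI scanner file given above. The UCSC transcript uc009shi.1 had 312 ± 31.4 in sham plasma, 123 in the matrix and 110 ± 11.3 in the IRI scanner file, with log2 fold changes of -1.69 and -4.25. Its IRI signals thus came close in both versions, and it was lower in both before normalization as well. AK138758 had 337, 151 in the matrix (-1.57) and 679 in the IRI scanner file (-2.23), and AK133109 had 108, 41.5 (-1.36) and 1889 (0.85). Transcripts under background in sham plasma and above the floor in the matrix had small bounds. ENSMUST00000121804 went from 5.25 to 64.5, at least 3.87-fold higher, uc009vft.1 from 15.0 to 49.8, at least 2.99-fold, and uc009vhj.1 from 8.39 to 39.3, at least 2.36-fold. The transcripts uc008idj.1 and uc009vfl.1 were at least 2.23-fold and 1.90-fold higher. On normalized signals the bounds of these 5 ran from 2.74-fold to 5.10-fold.

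Both versions detected 57 transcripts, and as they share the sham array their calls are set side by side without a test. In both versions 5 transcripts were higher, against 6.16% of the 16843 probes detected in both, and 5 were lower, against 16.0%. Another 5 were higher in the scanner files and lower in the matrix, against 2.68%, and 15 were lower in the scanner files and higher in the matrix, against 20.7%. The remaining 27 lay between the thresholds in at least 1 version. After quantile normalization, opposite calls were therefore made for more transcripts than equal calls past a threshold. Part of this came with the normalization. Of the 15, uc007rzy.1, AK015935, AK084568, AK084660, AK138450, AK142815, AK155224 and AK156239 had the higher scanner signal in IRI plasma before it, and the others the lower. Without normalization 12 transcripts had the same call in both versions.

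**Figure D5:**
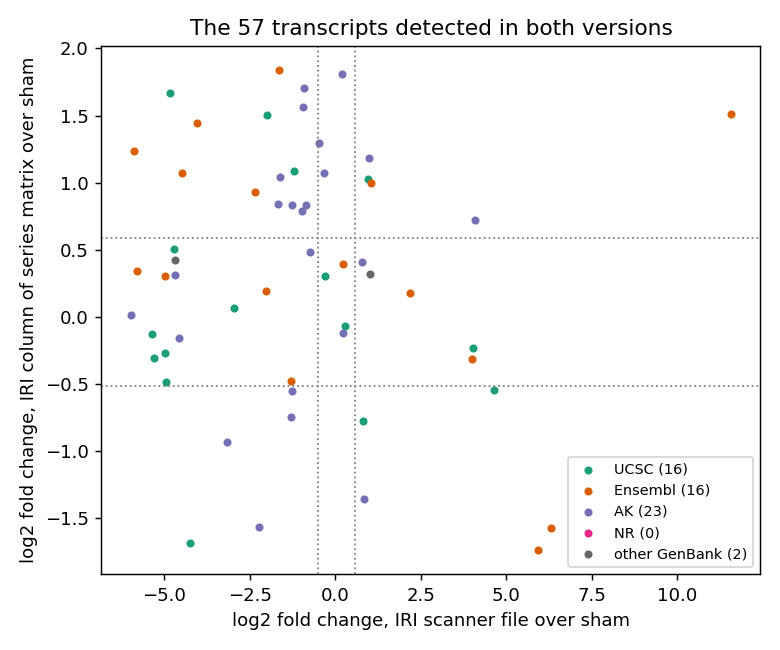
Log2 fold change of IRI over sham of the 57 transcripts detected in both versions, with the IRI scanner file on the x axis and the series matrix on the y axis; dotted lines are the thresholds of 1.5 and 0.7. The upper left corner holds 15 transcripts and the upper right and lower left corners 5 each, and the x axis spans a far wider range than the y axis.

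The 5 transcripts higher in both were ENSMUST00000121460, AK157254, uc009vhy.1, ENSMUST00000164823 and AK008571. AK157254 had 30.8 ± 6.73 in sham plasma, 300 ± 30.2 in the IRI scanner file and 58.0 in the matrix, with log2 fold changes of 1.0 and 1.19. The transcript uc009vhy.1 had 22.0, 173 and 32.7, with log2 fold changes of 0.95 and 1.02, and ENSMUST00000164823 had 23.7, 213 and 35.3, with 1.06 and 0.99. AK008571 had 30.2, 3520 and 39.1, with 4.09 and 0.72. All 5 had dim sham signals between 22.0 and 30.8, and their signals were higher in both versions before normalization.

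The 5 transcripts lower in both were uc009shi.1, AK040022, AK020531, AK138758 and AK037428. AK040022 had 133 ± 13.7 in sham plasma, 89.2 ± 9.27 in the IRI scanner file and 76.7 in the matrix, with log2 fold changes of -3.16 and -0.93. AK020531 had 225, 887 and 173 (-1.30 and -0.75), and AK037428 had 40.8, 69.8 and 21.2 (-1.27 and -0.55). For AK020531, AK037428 and AK138758 the scanner signal before normalization was higher in IRI plasma than in sham plasma. Only uc009shi.1 and AK040022 of the 5 were lower in both versions with and without normalization.

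The 4 RefSeq accessions that matched a gene were all of the NR kind. NR_015516 and NR_027950 are transcripts of 4930526I15Rik, a gene annotated as a LncRNA. NR_015516 had 17.2 in sham plasma, not well above background, whereas it had 841 in the IRI scanner file, at least 9.42-fold higher. NR_027950 had 14.0, also not above background, and 935, at least 10.7-fold higher. In the matrix both were under the floor, at 3.26 and 3.73. The pair of probes to this gene thus gave the same picture in each version. NR_003547 is Zf12, annotated as a transcribed pseudogene, and had 38.7 in sham plasma, 605 in the IRI scanner file (log2 fold change 1.40) and 15.1 in the matrix, at least 1.70-fold lower. NR_028110 belongs to Ppp2r3d, which encodes a regulatory subunit of protein phosphatase PP2A, an enzyme that removes phosphate from serine and threonine. It had 19.8 in sham plasma, 50.3 in the IRI scanner file (-0.35) and 2.65 in the matrix. NR_037700, with 3.70 in sham plasma, was above background in no version.

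Of the 13 other GenBank accessions, 2 were detected in the scanner files and 3 in the matrix. CF616602, an expressed sequence tag, had 1651 in sham plasma, 544 in the IRI scanner file (-4.70) and 3448 in the matrix (0.42). BC027568, a cDNA of the Mammalian Gene Collection, had 31.0, 310 and 29.1, with log2 fold changes of 1.02 and 0.32. U06946 had 42.6 in sham plasma, 4.86 in the IRI scanner file, at least 3.36-fold lower (11.3-fold on normalized signals), and 8.61 in the matrix, at least 1.91-fold lower. BC086621 had 4.99, 54.9 and 17.5 and was above background in IRI plasma in both versions. BC094434 and BY389293 were seen in the IRI scanner file only, at 31.1 and 40.2. Accessions AJ409467, AV295416, BB539827, CO432948 and DV057743 were above background on neither array.

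The UCSC names fall into 14 stems (such as uc009v), of which uc009s with 12 transcripts and uc009v with 11 were the largest. Of the uc009v transcripts 5 were detected in the scanner files and 5 in the matrix, and of the uc009s transcripts 5 and 3. Some transcripts of near names, chosen after their values were seen, differed in direction in the scanner files. While uc008ogc.1 and uc008ogi.1 were lower in the scanner files, uc008ogl.1 had 3.53 in sham plasma and 3747 in the IRI scanner file, at least 37.5-fold higher. Within uc009v, uc009vfa.1 and uc009vgv.1 were higher in the scanner files, whereas uc009vfx.1 went from 164 to 28.0 (-4.94) and uc009vgq.1 from 187 to 32.6 (-4.97). In the matrix the latter had 143 (-0.48) and 201 (-0.27), both between the thresholds. There uc009vfa.1 and uc009vgv.1 had log2 fold changes of -0.23 and -0.54, so that these chosen uc009v transcripts shared a sign after normalization. The remaining uc009v transcript detected in the matrix, uc009vhy.1, did not, with a log2 fold change of 1.02. Before normalization the log2 ratios in the matrix were 0.41 for uc009vfa.1, 0.13 for uc009vgv.1, 0.11 for uc009vgq.1 and -0.19 for uc009vfx.1. Whether near names share a locus was not analysed here.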

How the data were processed

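Arrays were 1-colour Agilent arrays of pooled plasma, 1 for sham and 1 for IRI. The authors used Agilent Feature Extraction 11.0.1.1 to read the spots, and deposited background-subtracted processed signals, which are linear intensities not normalized between arrays, with flags of 0 or 1. The sham signals differed from the background-subtracted ones by factors of 0.834 to 1.56 for transcripts well above background, and the IRI signals did not (1.0). The Feature Extraction error was 10.0% to 10.9% of the signal for sham signals over 100 and up to 22.0% for dimmer ones well above background. The series matrix deposited by the authors also holds intensities, was joined by feature number, and has 0 columns without a sample. How its IRI column was made is not given in the sources used here, nor is the file that it came from.

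Probes were selected by control type, probe name and accession as given in the results. Log2 signals were quantile normalized in numpy 2.4.6 and pandas 2.3.3 under Python 3.11.15 (ranks from scipy 1.17.1), checked against limma 3.58.1 in R 4.3.3 and tested on simulated data. Where a transcript was above background on 1 array only, the fold is a lower bound, set by the lowest signal above background on the other array, or by its own signal there if higher, and the smaller of the values before and after normalization is given. No test was made, since each group has 1 array. The number of arrays limits the precision.

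Members and gene lists were chosen with earlier results of these data known. Named transcripts were the 5 largest rises and falls among detected transcripts of each version, those past the same threshold in both versions, up to 5 bounds each way, every member of an accession prefix with 5 or fewer members, and members that the paper or a list of known LncRNAs names. Symbols came from RefSeq of GRCm38.p6, where 4 of the 213 accessions matched, as 3 symbols. Positions are not given, since that is not the build of the arrays.

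Alternatives were the detection flags, a filter on dim signals, normexp background correction with an offset of 50, other normalizations, other thresholds and the floor of the matrix. Chosen after seeing the data were changes relative to the median of all detected probes, counts at a log2 fold change of 5 and at a signal of 10000, the UCSC stems and ratios of log2 signals. The PCR and liver data of the study were not used here.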

Additional observations from a re-analysis of the deposited data

How the results depend on the processing

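In the scanner files, asking only for positive and significant spots gave 134 detected transcripts, 54 of them higher, and a median log2 fold change relative to all detected probes of 0.61. A normalized log2 signal of 6 or more on both arrays left 38 detected, 20 higher and 13 lower, and turned the median to 0.83 (2.34 relative to all detected probes). With normexp the relative median was 0.61. Quantile normalization over detected probes gave 22 lower and turned the median to 0.85. Without normalization 57 were higher and 19 lower, and the median turned to 1.76. Of the 41 transcripts called lower after quantile normalization, 20 had the higher signal in IRI plasma without it, and all 34 called higher were higher without it. In the matrix, no floor on the IRI signal gave 94 detected, 43 lower, a median of -0.31 and a relative median of -0.14. Thresholds of 2.0 and 0.5 left 7 lower in the matrix, and 3 transcripts with the same call in both versions in place of 10. Scaling to the 75th percentile gave a matrix median of 0.74. The other 40 alternative values of these counts and medians kept their direction, with counts within 1.5 times the reported one, among them 60 lower in the scanner files with positive and significant spots, and 36 or 16 higher in the matrix with the 75th percentile or thresholds of 2.0 and 0.5. Among single transcripts, taken relative to the median of all detected probes, 104 of 189 alternative values moved by more than the SD between spots. Scaling to the 75th percentile and no normalization give the same relative value by construction. Each such value is counted under both settings, so that the 189 are not all distinct. The sign turned in 13 of the 189, for AK138758 and ENSMUST00000171761 in the scanner files and AK008571, AK140593, BC027568 and uc008ogc.1 in the matrix, whose relative values were 0.51 or less in size and within the thresholds. With ratios of log2 signals, chosen after seeing the data, 20 of 84 detected transcripts were higher and 21 lower in the scanner files. Of all 21294 detected probes, 1919 were higher and 8330 lower there. In the matrix 0 and 0 of 61 detected transcripts were, against 101 and 387 of 17709 detected probes. The causes of these differences were not tested. No replicate could be left out, and no paired analysis was possible because each group has 1 array. Signals near background limit the small folds, and for transcripts above background on 1 array only a bound can be given.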
